A study of Mus musculus with 10 samples.

Results

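The 10 genes described here, *Pecam1*, *Cdh5*, *Kdr*, *Flt4*, *Tek*, *Plvap*, *Clec4g*, *Lyve1*, *Stab2* and *Oit3*, are used as markers of the endothelial cells that line the liver sinusoids. They were taken by symbol and are 10 of the 25233 genes with a symbol in the deposited table, and each symbol matched 1 entry. RNA sequencing was performed on 5 preparations of hypertrophied hepatic stellate cells (hypHSCs) and 5 of quiescent hepatic stellate cells (qHSCs), each sequenced as 1 library. All came from male C57BL/6J mice. The hypHSCs were sorted for strong green fluorescence and medium side scatter (granularity) from livers of mice on the CDAHFD, a high-fat diet without choline and with little methionine that causes steatohepatitis and fibrosis. The mice behind hypHSC 1 and 2 were 19 weeks old and had eaten it for 13 weeks, those behind hypHSC 3, 4 and 5 were 18 weeks old and had eaten it for 12. The qHSCs were sorted for the blue fluorescence of retinoids from livers of mice on the standard diet, aged 36 weeks (qHSC 1, 2 and 5) or 34 weeks (qHSC 3 and 4). Digestion and perfusion also differed between the groups, so the effects of diet, age, digestion and gate cannot be told apart. In both groups the sequenced preparations had been selected, those of hypHSCs for the highest RNA integrity. The sources used here do not name the mouse behind each library, and the p-values below measure the spread between preparations, which may be technical.

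Liver sinusoidal endothelial cells form the fenestrated wall between the blood and the space of Disse, where the stellate cells lie. They clear waste molecules from the blood through scavenger receptors and lectins, and in capillarization, a change known from chronic liver injury, they lose their fenestrae and take on features of ordinary capillaries. They also exchange growth signals with stellate cells and hepatocytes through the VEGF and angiopoietin pathways. Both sorts aimed at stellate cells, so the values below are those of endothelial genes in sorted stellate cell preparations, and in such bulk samples fewer cells of a type and less RNA per cell cannot be told apart.

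Each hypHSC library held 30534719 to 43283589 reads on these genes with a symbol and each qHSC library 35640104 to 47317028. A floor of 3 reads equalled 2.49 to 4.54 normalized counts in hypHSCs and 2.25 to 2.72 in qHSCs, and it covers counting error only. A normalized count is a read count divided by the size factor of its library. By the test described below, 21.7% of all genes tested were lower in hypHSCs, 17.8% were higher, and 39.5% had groups without overlap. The marker genes of stellate cells fell in hypHSCs, all 8 of 8 without overlap between the groups, and their summed FPKM (fragments per kilobase of exon, scaled to the reads of the library) was 64.5 to 130.5 in hypHSCs and 4097 to 5290.0 in qHSCs. Of these markers, *Hhip* passed the filter of the test through the qHSC libraries only, so its call carries little weight. Of 8 macrophage markers, 5 rose in hypHSCs and 3 were not called, with summed FPKM of 7545 to 10025 against 29.6 to 831. Summed FPKM was 3.11 to 22.1 against 0.0368 to 0.542 for biliary epithelial markers, of which all 3 tested rose, 138 to 734 against 281 to 1045 for hepatocyte markers and 0.414 to 10.7 against 0.168 to 4.24 for lymphocyte markers. Among the biliary markers, *Krt19* passed the filter through the hypHSC libraries only, so its call carries little weight, and *Krt7* did not pass. The part of these cell types in the values of the endothelial genes was not tested unless a value is given.

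Together the 10 genes took 0.00165% to 0.00297% of the gene reads of a hypHSC library and 0.0172% to 0.0178% of those of a qHSC library. *Plvap* alone made up 58.4% to 82.7% of these reads in qHSCs and 1.36% to 13.5% in hypHSCs. The summed FPKM of the 10 genes was 3.52 to 6.15 in hypHSCs and 40.4 to 44.6 in qHSCs. For *Pecam1*, *Cdh5*, *Kdr*, *Flt4* and *Tek*, the adhesion molecules and receptors that endothelial cells of most organs share, the sum was 0.310 to 0.731 in hypHSCs and 0.551 to 2.41 in qHSCs. For a further list of 25 pan-endothelial genes, *Eng* and *Clec14a* among them, it was 5.31 to 21.2 in hypHSCs but 209.7 to 371 in qHSCs.

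The test was limma on log2(normalized count + 1), run on the 14630 genes that reached 10 normalized counts in 5 or more libraries, with Benjamini-Hochberg adjustment over all of them. A gene was called higher or lower when its log2 fold change was 1 or more in size and its adjusted p 0.05 or less. Of the 10 genes, 8 passed the filter, and the 10 did not move in one direction. In hypHSCs *Clec4g*, *Plvap* and *Tek* were lower, *Oit3* and *Stab2* were higher, and *Pecam1*, *Cdh5* and *Kdr* were not called. *Flt4* and *Lyve1* had too few reads for the filter. Thus 3 of 8 were called lower and 2 of 8 higher, where 21.7% (3177) and 17.8% (2602) of all genes tested were called in these directions and 39.5% in either. With every library scaled to an equal total, 4243 of all genes tested were lower and 2013 higher, and when they were scaled on *Hprt*, *Pgk1* and *Actb*, 7020 were lower and 1472 higher. The median log2 fold change was 0.13 for the 8 genes and -0.20 for all genes tested. Of the 10 genes, 7 had at least 1 read in every library. Groups without overlap were found for 4 of the 10 genes, which are 4 of the 8 tested, and for 39.5% (5784) of all genes tested.

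**Figure D1:**
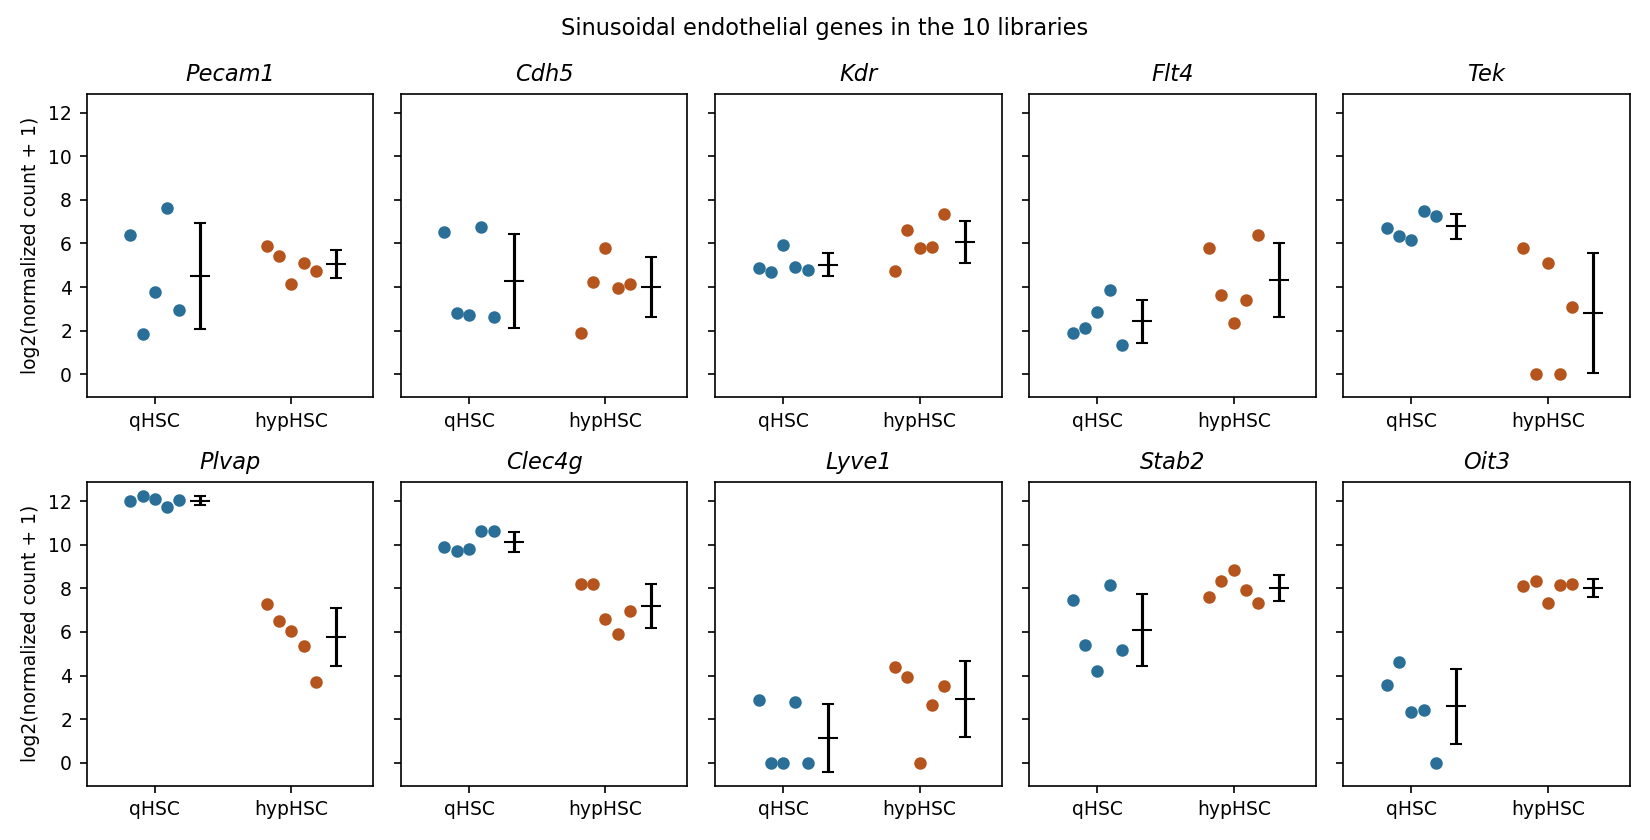
Expression of the 10 sinusoidal endothelial genes as log2(normalized count + 1), with 1 point per library and, beside the points, the mean and SD of the 5 qHSC (blue) and 5 hypHSC (orange) libraries. *Plvap*, *Clec4g* and *Tek* lay lower in every hypHSC library than in any qHSC library, *Oit3* lay higher, and the groups overlapped for the other 6 genes.

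*Plvap* encodes the protein of the diaphragms that span endothelial fenestrae and caveolae. The study also counts it among the genes known for quiescent stellate cells, so it is not a marker of endothelium alone. Its normalized counts were 4084, 4858, 4387, 3353 and 4299 in qHSC 1 to 5, and 152, 89.0, 64.9, 39.9 and 12.1 in hypHSC 1 to 5. The qHSC libraries lay within a narrow range, while the hypHSC libraries spread widely and all lay below them. *Plvap* (chromosome 8, 71950398 to 71964413 on GRCm39, minus strand) had means of 71.6 ± 53.4 in hypHSCs and 4196 ± 549.6 in qHSCs (SD, n = 5), a log2 difference of -6.25 (SE 0.54, limma adjusted p = 4.79e-06). It was called lower in each of the 12 alternative analyses and in each of the 10 fits without 1 library. With the hypHSCs at 12 weeks only, the log2 fold change was -6.99, and over the fits without 1 library it was -6.63 to -5.74. *Gtpbp3*, on the opposite strand, covers 21.7% of the exon bases of *Plvap*, and reads were counted without strand. *Gtpbp3* itself held 36.8 to 89.9 normalized counts in qHSCs and 6.05 to 99.4 in hypHSCs, where *Plvap* held 12.1 to 152. The part of *Gtpbp3* in the reads of *Plvap* was not tested.

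*Clec4g* encodes a C-type lectin of sinusoidal and lymph node endothelium, known as LSECtin, that binds glycans and T cells. Its normalized counts were 947, 836, 892, 1574 and 1582 in qHSC 1 to 5, and 292, 296, 94.8, 59.8 and 124 in hypHSC 1 to 5. The groups did not overlap, and the pair of hypHSC libraries at 13 weeks lay above the 3 at 12 weeks. *Clec4g* (chromosome 8, 3757064 to 3770652, minus strand) had a mean of 173 ± 113 in hypHSCs and 1166 ± 378 in qHSCs (SD, n = 5 libraries per group), a log2 fold change of -2.95 (standard error 0.45, limma adjusted p = 0.000273). With the hypHSCs at 12 weeks only it was -3.64, and the gene was called lower in each of the 12 alternatives and each of the 10 fits without 1 library.

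*Stab2* encodes stabilin-2, the scavenger receptor through which sinusoidal endothelium takes up hyaluronan and other waste. Its normalized counts were 178, 41.75, 17.3, 282 and 35.2 in qHSC 1 to 5, and 193, 323, 452, 242 and 159 in hypHSC 1 to 5. The groups overlapped, since qHSC 1 and 4 lay among the hypHSC libraries and the other 3 qHSC libraries far below. *Stab2* (chromosome 10, 86677067 to 86843887, minus strand) had a mean of 274 ± 117 in hypHSCs and 111 ± 115 in qHSCs (SD, n = 5), a log2 fold change of 1.92 (standard error 0.71, limma adjusted p = 0.0429). The exact two-sided permutation test over all arrangements of the libraries gave p = 0.0635. The call was fragile. It was lost in 7 of the 10 fits without 1 library, namely without hypHSC 1 (2.02), hypHSC 2 (1.83), hypHSC 3 (1.71), hypHSC 4 (1.94), qHSC 2 (1.75), qHSC 3 (1.45) or qHSC 5 (1.69), and with the hypHSCs at 12 weeks only (1.94, limma adjusted p = 0.104). DESeq2 on the recovered reads gave 1.36 (adjusted p = 0.0892) and no call.

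*Lyve1*, the hyaluronan receptor of lymphatic and sinusoidal endothelium, had normalized counts of 20.2, 14.5, 0, 5.25 and 10.6 in hypHSC 1 to 5. In qHSCs they were 6.34 and 5.99 in qHSC 1 and 4, and 0 in the other 3. At no more than 15 reads per hypHSC library and 7 per qHSC library, *Lyve1* (chromosome 7, 110449810 to 110462266, minus strand) was near the floor in both groups, and a difference was not detectable at this depth (exact two-sided permutation test, p = 0.143).

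*Oit3* encodes a secreted protein with a zona pellucida domain, and its gene is a marker of sinusoidal endothelium in single-cell atlases of the mouse liver. It held 272, 323, 160.5, 280.1 and 290.4 normalized counts in hypHSC 1 to 5, and 10.9, 23.9, 3.94, 4.28 and 0 in qHSC 1 to 5. Every hypHSC library lay above every qHSC library, with 192 to 312 reads against 0 to 28. *Oit3* (chromosome 10, 59258780 to 59277602, minus strand) rose from 8.59 ± 9.39 in qHSCs to 265 ± 61.7 in hypHSCs (SD, n = 5), a log2 fold change of 5.44 (standard error 0.75, limma adjusted p = 0.000138). The size of the change rests on few qHSC reads and was 3.98 with 10 in place of 1 added to each count, and 5.03 with DESeq2. The call held in each of the 12 alternatives and each of the 10 fits without 1 library, and the log2 fold change was 5.30 with the hypHSCs at 12 weeks only. The exons of *Pla2g12b* on the opposite strand cover 1.73% of those of *Oit3*.

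The sequences before *Clec4g*, called lower, and *Stab2*, whose call as higher was fragile, are shown. They are the bases of the RefSeq promoter windows (table of GRCm38.p6, each matched exactly and once on its chromosome of GRCm39) that lie before the annotated start of the gene, 230 bases at chr8:3770672-3770901 for *Clec4g* and 167 bases at chr10:86843890-86844056 for *Stab2*, both on the minus strand and written 5′ to 3′. Of the 10 genes, 5 matched an entry, and only these 2 had at least 100 bases before the gene, which is why they were chosen. Capitals mark the letters of motifs of 4 kinds of endothelial transcription factor, searched on both strands. The letters searched for the ETS family were AGGAAG, and those searched for the factors of the GATA family were AGATAA. The letters searched for the forkhead family were TGTTTAC, and those searched for the factors of the SOX family were ACAATG.
Clec4g: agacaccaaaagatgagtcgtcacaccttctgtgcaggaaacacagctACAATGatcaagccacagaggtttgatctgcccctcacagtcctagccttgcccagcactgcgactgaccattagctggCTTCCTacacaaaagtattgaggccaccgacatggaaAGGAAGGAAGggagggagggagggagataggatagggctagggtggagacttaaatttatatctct
Stab2: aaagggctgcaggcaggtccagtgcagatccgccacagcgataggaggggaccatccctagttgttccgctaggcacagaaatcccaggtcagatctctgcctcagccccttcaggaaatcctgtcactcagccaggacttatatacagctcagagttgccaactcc

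The *Clec4g* stretch held the ETS letters 3 times, of which 2 overlapped, and the SOX letters 1 time, while the first 230 bases of 27.2% and 9.9% of 32544 promoter windows held these letters. The GATA and forkhead letters were in 9.5% and 2.9% of those windows and in neither stretch. None of the 4 was in the 167 bases of *Stab2*, where 20.2% (ETS), 7.2% (GATA), 2.2% (forkhead) and 7.1% (SOX) of windows of that length held them. A match describes the letters only, and no match says only that they are not in the stretch.

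*Pecam1*, which encodes the junction protein CD31, held 57.9, 41.4, 16.6, 33.6 and 25.7 normalized counts in hypHSC 1 to 5. In qHSC 1 to 5 it held 83.3, 2.56, 12.6, 199 and 6.74. The hypHSC libraries lay inside the range of the qHSC libraries, which itself ran from 3 to 232 reads. *Pecam1* (chromosome 11, 106545039 to 106641455, minus strand) had means of 35.1 ± 15.8 and 60.7 ± 83.8 (SD, n = 5). Its log2 fold change was 0.54 (standard error 1.02, limma adjusted p = 0.687) with a 95% interval of -1.70 to 2.77, which holds changes in both directions. DESeq2 on the recovered reads placed it on the other side of 0, at -0.77.

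*Cdh5* encodes VE-cadherin, the cadherin of endothelial junctions. It held 2.7, 17.6, 54.9, 14.7 and 16.6 normalized counts in hypHSC 1 to 5, and 92.3, 5.96, 5.51, 106 and 5.25 in qHSC 1 to 5. As for *Pecam1*, qHSC 1 and 4 lay above every hypHSC library and the other 3 qHSC libraries lay low, near the floor. *Cdh5* (chromosome 8, 104828257 to 104871134, plus strand) was at -0.28 in log2 fold change (standard error 1.05, limma adjusted p = 0.841, 95% interval -2.59 to 2.02), which turned to 0.35 with the hypHSCs at 12 weeks only.

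Receptor tyrosine kinases carry the VEGF and angiopoietin signals. *Kdr*, the main VEGF receptor of endothelial cells (VEGFR2), held 25.6, 97.3, 54.9, 55.6 and 160.3 normalized counts in hypHSC 1 to 5. In qHSC 1 to 5 it held 28.1, 24.7, 59.8, 29.1 and 26.2. Of the hypHSC libraries, hypHSC 1 lay among the lowest of all 10, and qHSC 3 lay above the other qHSC libraries. *Kdr* (chromosome 5, 76093487 to 76139121, minus strand) had means of 78.7 ± 52.3 and 33.6 ± 14.8 (SD, n = 5) and a log2 fold change of 1.03 (standard error 0.53, limma adjusted p = 0.127), which did not pass the test. DESeq2 on the recovered reads called it higher (1.30, adjusted p = 0.0399), and so did limma without hypHSC 1 (1.36, adjusted p = 0.0408), while edgeR did not (1.29, adjusted p = 0.0808).

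*Flt4*, the receptor for VEGF-C and VEGF-D (VEGFR3), held 53.9, 11.4, 4.16, 9.44 and 81.7 normalized counts in hypHSC 1 to 5. In qHSC 1 to 5 it held 2.72, 3.41, 6.30, 13.7 and 1.5. Only hypHSC 1 and 5 stood well above the qHSC libraries, and *Flt4* (chromosome 11, 49500089 to 49543564, plus strand) reached 10 normalized counts in 4 libraries, too few for the filter. Without a filter its log2 fold change was 1.89 (limma adjusted p = 0.113), and the exact two-sided permutation test gave p = 0.0794.

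*Tek* encodes TIE2, the receptor of the angiopoietins. It held 104, 80.9, 70.1, 177 and 149.9 normalized counts in qHSC 1 to 5, and 55.3, 0, 33.3, 0 and 7.56 in hypHSC 1 to 5. All hypHSC libraries lay below all qHSC libraries, and 2 of them had no read. *Tek* (chromosome 4, 94627526 to 94763213, plus strand) fell from 116 ± 45.7 to 19.2 ± 24.3 (SD, n = 5), which was -3.99 as a log2 fold change (SE 1.12, limma adjusted p = 0.0124). With 2 libraries at 0 the size depends on the count added, and it was -2.46 with 10 added. The call held in 10 of 11 alternatives and in each of the 10 fits without 1 library, and was lost with edgeR on the recovered reads (-2.56, adjusted p = 0.0757).

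**Figure D2:**
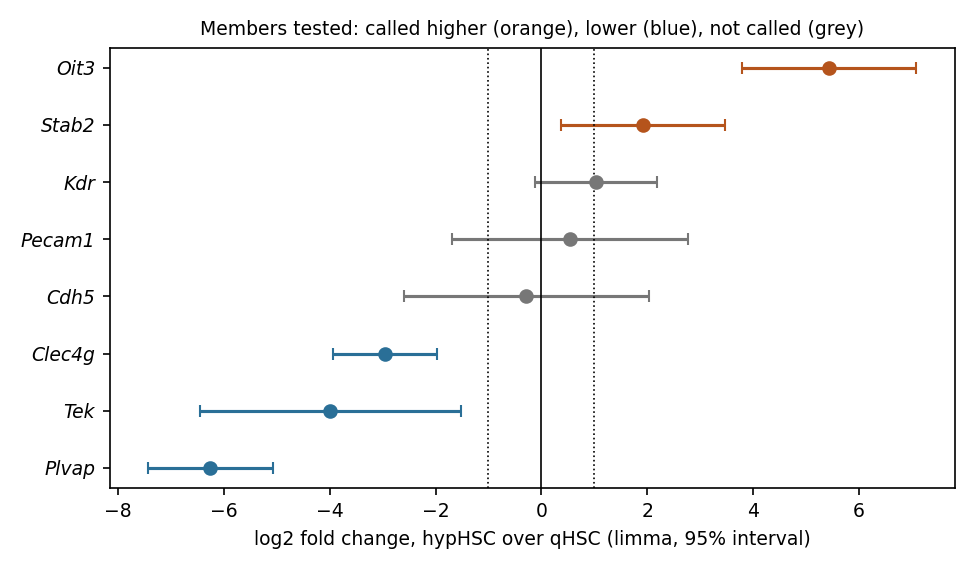
Log2 fold change of the 8 genes tested, hypHSCs over qHSCs (x axis, limma on log2(normalized count + 1)), with 95% intervals and dotted lines at the fold change threshold of 1 in each direction. *Oit3* and *Stab2* were called higher (orange), *Clec4g*, *Tek* and *Plvap* lower (blue), and the intervals of *Kdr*, *Pecam1* and *Cdh5* (grey) included 0.

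Of the 5 ligands of *Kdr*, *Flt4* and *Tek*, 2 rose, 2 fell and 1 was not called. Among all genes tested, 17.8% were called higher and 21.7% lower. *Angpt1*, the agonist of TIE2 that perivascular cells make, fell from 430.1 ± 59.5 to 51.5 ± 33.1 normalized counts (log2 fold change -3.31, standard error 0.47). *Angpt2*, which acts against it in many settings, rose from 9.04 ± 10.4 to 153 ± 89.5 (4.67, 0.87). *Vegfc* fell from 654 ± 175 to 124 ± 87.3 (-2.63, 0.45). *Vegfa*, the main ligand of VEGFR2, rose to 52.4 ± 36.3 from 2.36 ± 2.05, where no qHSC library held more than 7 reads. Since *Vegfa* passed the filter through the hypHSC libraries only, its call carries little weight. *Vegfd* was at 206 ± 107 against 93.4 ± 26.9 (log2 fold change 0.998, standard error 0.43, limma adjusted p = 0.0758). The receptor *Tek* and its ligand *Angpt1* were thus both lower in hypHSCs, while its ligand *Angpt2* was higher, as measured in the same libraries.

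Levels of different genes were compared per exon length, as FPKM. In qHSCs *Plvap* was highest (mean 33.4, range 26.9 to 38.3), followed by *Clec4g* (7.46, 5.34 to 10.2), and these ranges did not overlap with each other or with those of the other 8 genes. After them came *Tek* (0.587), *Stab2* (0.316), *Cdh5* (0.303), *Pecam1* (0.187), *Kdr* (0.113), *Oit3* (0.0913), *Flt4* (0.0208) and *Lyve1* (0.0183), and the ranges of neighbours in this order overlapped. In hypHSCs *Oit3* was highest (2.17, range 1.54 to 2.74), and its lowest library lay just above the highest of *Clec4g* (0.884, 0.282 to 1.53). *Stab2* (0.630), *Plvap* (0.460), *Kdr* (0.198), *Cdh5* (0.123), *Flt4* (0.0879), *Pecam1* (0.0834), *Tek* (0.0808) and *Lyve1* (0.0570) followed, with overlapping ranges between neighbours. Among all genes with a length, *Plvap* took rank 1104 in qHSCs and 10081 in hypHSCs, *Clec4g* 3249 and 8285, and *Oit3* 14060 and 5637.

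**Figure D3:**
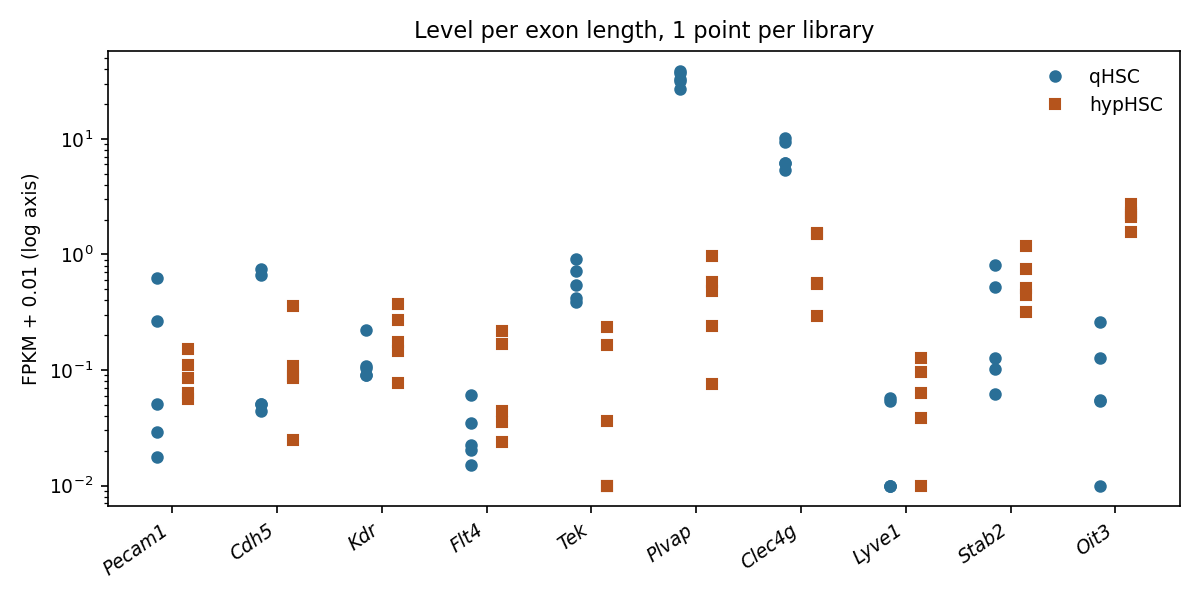
Level per exon length of each of the 10 genes (FPKM + 0.01 on a log axis), with 1 point per library for qHSCs (blue circles) and hypHSCs (orange squares). *Plvap* and *Clec4g* stood apart in qHSCs at 26.9 to 38.3 and 5.34 to 10.2 FPKM, and *Oit3* was the highest gene in hypHSCs at 1.54 to 2.74 FPKM.

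A further 87 endothelial genes from 5 lists, several of which other liver cells also express, gave a wider view, and 69 passed the filter. Of these, 30 (43.5%) were called lower in hypHSCs, 13 (18.8%) higher and 26 not, with a median log2 fold change of -0.76. All genes tested had 21.7% lower, 17.8% higher and a median of -0.20, so the higher share was near theirs. The same shares of all genes are the background for each list below. Genes that endothelial cells of most organs share were mostly lower, with 10 of 19 lower and 1 higher (median -2.57). Among the lower, *She* and *Pcdh12* passed the filter through the qHSC libraries only, so their calls carry little weight. *Esam*, an endothelial adhesion molecule, fell from 2025 ± 366 to 16.7 ± 16.9 normalized counts (log2 fold change -7.70, standard error 0.84). *Clec14a* (-6.13, 0.38), *Calcrl*, a receptor of adrenomedullin (-6.39, 0.72), its partner *Ramp2* (-3.73, 0.38), *Ecscr* (-2.45, 0.42) and the TGF-β coreceptor endoglin (*Eng*, -4.87, 0.57) also fell. *Eng* reached 25742 ± 8683 normalized counts in qHSCs. Per exon length its mean there was 100.8 FPKM, against 0.187 for *Pecam1* in the same libraries. *S1pr1*, the receptor of sphingosine 1-phosphate, was the 1 gene called higher (2.78, 0.89), with overlapping groups. Neither *Robo4* nor *Arhgef15* had a read in any hypHSC library. Their qHSC libraries held 0 to 113 and 0 to 25 reads, and neither gene passed the filter.

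The other genes of sinusoidal endothelium split, with 7 of 15 lower (46.7%) and 4 higher (26.7%, median -0.35). *Ehd3*, an endocytic ATPase, fell from 63919 ± 22570.0 to 1009 ± 783 normalized counts (-6.27, 0.50), the Wnt agonist *Rspo3* fell by 5.94 (0.57), and so did coagulation factor VIII (*F8*, -4.84, 1.23). *Gpr182*, *Bmp2*, *Adam23* and *Tfpi* were the other 4 lower genes. The 4 higher genes were *Stab1* (4.22, 0.39), *Mrc1* (3.30, 0.69), *Fcgr2b* (5.85, 0.55) and *Cd36* (10.05, 1.05), of which macrophages also express each. Of 8 macrophage markers, 5 were called higher in the same libraries and 3 were not called, of which *Timd4* had -3.14. The part of macrophages in the rises of the listed genes was not tested. Stellate cell markers were lower in these libraries, and the part of stellate cells in the falls of the listed genes was not tested. *Cd36* reached 115457 ± 42131 normalized counts in hypHSCs against 236 ± 264 in qHSCs. *Thbd* had -0.31 (0.44) and was not called.

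Among endothelial transcription factors, 5 of 15 were lower and 3 higher (median -0.42). *Heyl* (-6.59, 1.36), *Ets1* (-5.66, 0.97) and *Gata4* (-5.30, 0.91) had the largest falls, and *Gata4*, a regulator of sinusoidal identity that stellate cells also express, held 205 ± 60.6 normalized counts in qHSCs and 8.99 ± 9.96 in hypHSCs. *Lmo2* (3.45, 0.34), *Lyl1* (2.97, 0.84) and *Hhex* (4.28, 0.54) rose. *Maf* (0.85, 0.24), *Ets2* (-0.76, 0.23) and *Klf4* (-0.42, 0.46) were not called. *Erg*, *Sox17*, *Sox18*, *Tal1* and *Gata2* did not pass the filter, and *Sox17* and *Sox18*, which are defining factors of endothelium, had no more than 3 reads in any library.

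Of 16 genes of capillaries, arteries and veins, 6 were lower (37.5%) and 3 higher (18.8%, median -1.15). The higher share was again near the 17.8% of all genes tested. *Vwf*, von Willebrand factor, rose from 8.09 ± 5.18 to 141 ± 17.2 normalized counts (4.16, 0.49) without overlap, and *Cd34* (2.33, 0.59) and *Rgcc* (3.24, 0.71) rose too. *Ackr1* (-7.12, 1.13), *Gja4* (-5.67, 0.67), *Nr2f2* (-3.37, 0.29) and *Ly6a* (-2.05, 0.65) fell, as did the Notch ligand *Dll4*, from 77.0 ± 31.9 to 0.540 ± 1.21, with no more than 2 reads in any hypHSC library. *Dll4* passed the filter through the qHSC libraries only, so its call carries little weight. *Ly6c1* had -1.61 (0.65, limma adjusted p = 0.0608). Of the 4 lymphatic genes tested, *Pdpn* and *Prox1* were higher and *Ccl21a* and *Sema3d* lower. *Pdpn*, podoplanin, held 1575 ± 892 normalized counts in hypHSCs and no more than 7 reads in any qHSC library, and *Prox1*, the lymphatic regulator, 42.5 ± 33.2 against 8.99 ± 9.26. The call of *Pdpn* carries little weight, since the gene passed the filter through the hypHSC libraries only. *Mmrn1* and *Nts* did not pass the filter.

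**Figure D4:**
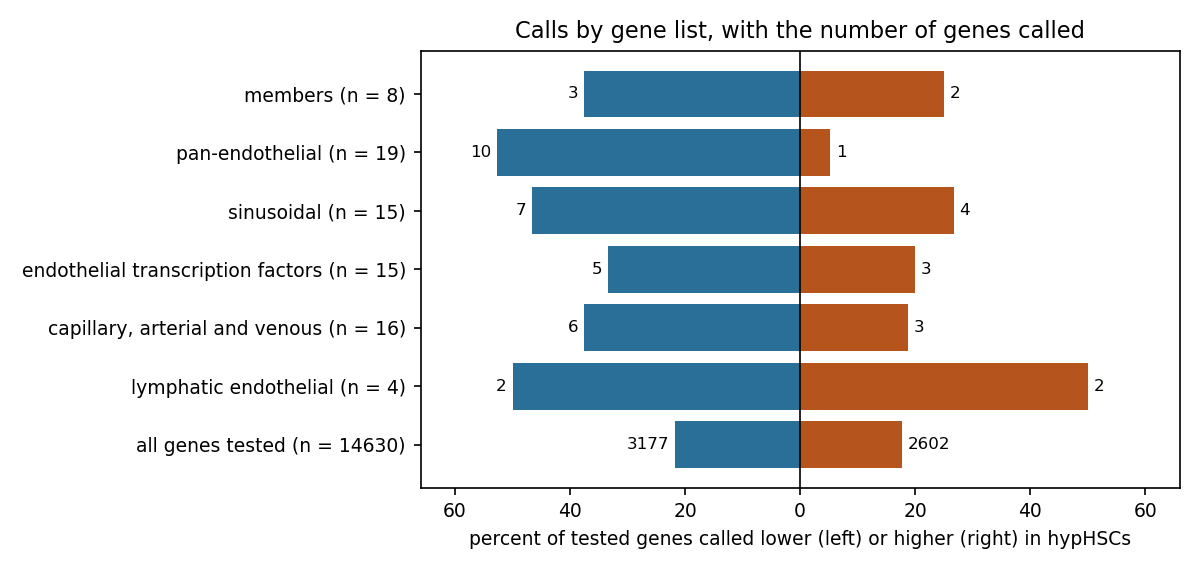
Percent of tested genes called lower (left, blue) or higher (right, orange) in hypHSCs for the sinusoidal endothelial genes (labelled members), the 5 further endothelial lists and all genes tested, with the number of genes at each bar. The genes shared by most endothelia had 10 of 19 lower and 1 higher, against 21.7% lower and 17.8% higher of all genes tested.

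Within the qHSCs, *Pecam1*, *Cdh5* and *Stab2* shared a pattern, which was noticed after the values were seen. qHSC 1 and 4 were the highest qHSC libraries for these 3 of the 8 genes tested (37.5%), and also the 2 with reads of *Lyve1*. The same held for 8 of 69 further endothelial genes (11.6%), for 11.1% of all genes tested, for 8 of 8 macrophage markers, for 4 of 5 hepatocyte markers and for none of 8 stellate cell markers. The summed FPKM of the macrophage markers was 378 in qHSC 1 and 831 in qHSC 4, against 29.6 to 73.5 in the other 3. The part of these cells in the counts of *Pecam1*, *Cdh5*, *Stab2* and *Lyve1* was not tested. *Plvap*, *Clec4g* and *Tek* did not share the pattern, and qHSC 4 was the lowest qHSC library for *Plvap*.

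**Figure D5:**
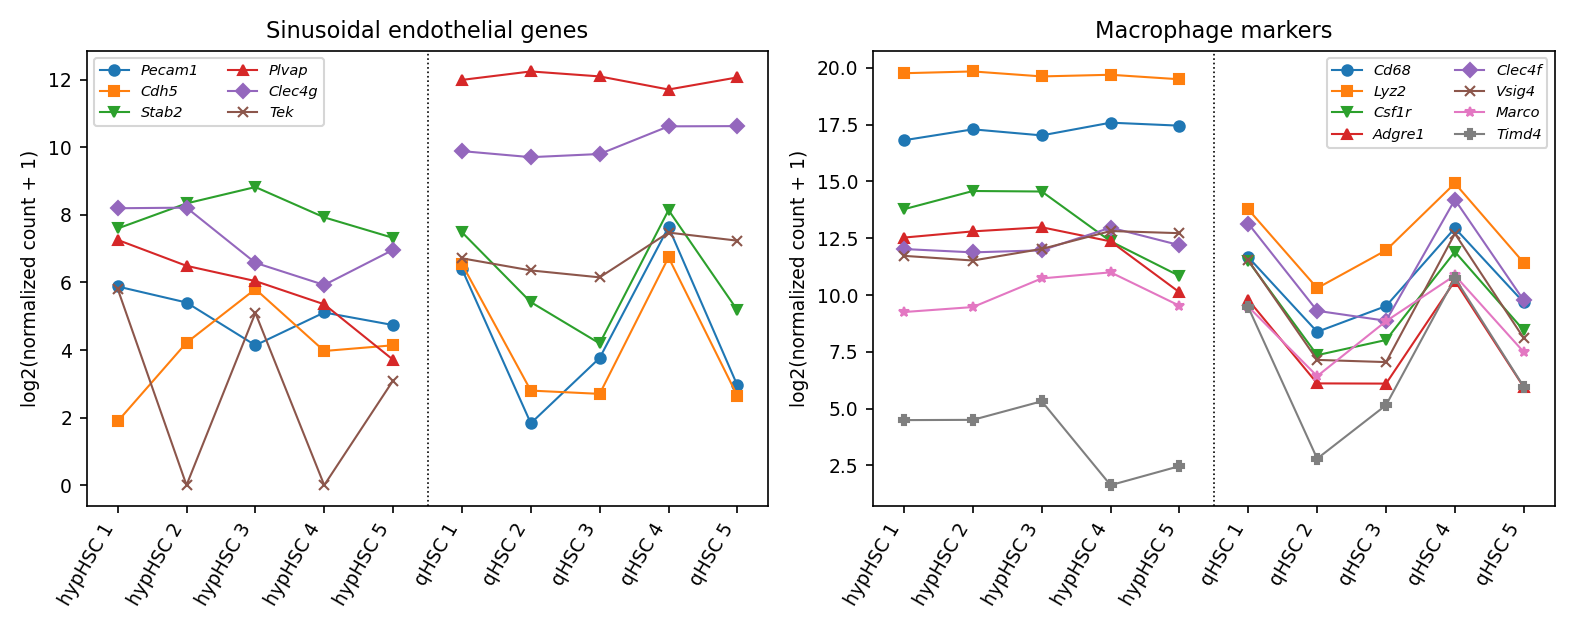
Log2(normalized count + 1) of 6 sinusoidal endothelial genes (left) and 8 macrophage markers (right) in each library, with lines that only join the values of 1 gene. In qHSC 1 and 4, *Pecam1*, *Cdh5* and *Stab2* were high together with all 8 macrophage markers, while *Plvap* and *Clec4g* stayed at the level of the other qHSC libraries or moved apart from them.

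After the mean of each group was removed, the log2 values of *Cdh5* and *Stab2* had a Pearson correlation of 0.88 over the 10 libraries, *Pecam1* and *Stab2* of 0.73, and *Pecam1* and *Cdh5* of 0.63, while *Kdr* and *Plvap* had -0.69. These describe libraries that share preparation and depth. By the same measure, the gene outside the 10 whose deviations were most like those of *Plvap* was *Cavin1*, a coat protein of caveolae (r = 0.995, lower in hypHSCs), and for *Tek* it was *Tmtc1* (0.981, lower). For *Pecam1* it was the lysosomal protease gene *Ctss* (0.979, higher in hypHSCs), for *Stab2* the innate RNA sensor gene *Tlr8* (0.963, higher), and for *Kdr* the lamin gene *Lmna* (0.958, higher). *Kcnj16* for *Cdh5* (0.944) and *Pkmyt1* for *Clec4g* (0.937) were not called, and *Lypd8l* for *Oit3* (0.969) had no read in hypHSCs, so its likeness rests on the 5 qHSC libraries and on no spread in hypHSCs. Each of these values is the highest over all other genes tested, in only 10 libraries. Such a highest value can be large for unrelated genes, and whether these exceed that was not tested.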

How the data were processed

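The authors mapped the reads (unstranded, both ends, 59 bases, from poly(A) priming) to mm39 with STAR, counted them per gene with featureCounts of Subread 1.5.0 and FAST DB annotations, and deposited a signal per gene, the count divided by a DESeq2 size factor. The submitters' notes also name FastQC, Picard and SAMtools. When the size factors were multiplied back, 100% of the values became whole reads (within 0.1 of a read). These reads served for depth, FPKM, DESeq2 (1.42.0) and edgeR (4.0.16), which called 5861 and 5336 genes. The deposited values were normalized, so limma (3.58.1, R 4.3.3, intensity trend) on log2(normalized count + 1) was used for the calls, in place of the DESeq2 of the study, with its thresholds. Fold changes are on this scale, where those of low genes depend on the count added. Entries without a symbol held 8.98% to 29.1% of the reads and were left out except in an alternative. FPKM used GENCODE vM39 exon lengths, found for 91.9% of the genes with a symbol, and positions are as deposited.

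The genes, lists and markers were chosen with earlier results of these data known. Named were the 10 genes in every library and, of each list, the 6 genes with the highest mean, every gene called higher, and the 3 largest falls. Other genes named only as lower, untested or without reads were added after their values were seen. *Gtpbp3* was added likewise. For likeness, the gene with the highest Pearson correlation after removal of group means was taken. The steps were tested on simulated data. Alternatives changed the added count, the filter, the scaling, the tool, a replicate block, the diet duration, the entries and each library in turn.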

Additional observations from a re-analysis of the deposited data

Results flagged for a closer look

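Each gene was checked for a library far from the other 4 of its group (Dixon's ratio above 0.71, 20 groups of 5 libraries), a check that chance meets in about 1 of 20 groups, and 2 were flagged. *Kdr* was far higher in qHSC 3 (59.8 normalized counts) than in the other qHSC libraries (24.7 to 29.1). *Oit3* was far lower in hypHSC 3 (160.5 normalized counts) than in the other hypHSC libraries (272 to 323), and it still lay above every qHSC library.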

How the results depend on the processing

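*Plvap*, *Clec4g* and *Oit3* kept their calls under all alternatives run, with log2 fold changes of -7.19 to -5.74, -3.89 to -2.64 and 3.98 to 5.95. The count of genes called higher, 2, was 1 under equal totals, under scaling on *Hprt*, *Pgk1* and *Actb*, under edgeR, with the replicate block and with the hypHSCs at 12 weeks only, each time because *Stab2* was lost, and 1 to 2 with 1 library left out. The count called lower, 3, was 2 to 3 under the alternatives and 3 with any library left out. Of the further endothelial genes, 24 to 39 were lower (26 to 32 with 1 library left out) and 8 to 16 higher (10 to 14), with 8 under 12 weeks only. *Pecam1* reversed to -0.34 under scaling on *Hprt*, *Pgk1* and *Actb*, -0.77 under DESeq2, -0.79 under edgeR and -0.13 without qHSC 2 (-0.13 to 1.32 with 1 library left out). *Cdh5* reversed to 0.35 under 12 weeks only, 0.25 without hypHSC 1, 0.28 without qHSC 1 and 0.33 without qHSC 4 (-0.73 to 0.33). The causes were not tested. Scaling to equal totals, to the same upper quartile or on *Hprt*, *Pgk1* and *Actb* moved the median of all genes by -0.35, 0.12 and -0.93. Relative to its median (-1.13), *Stab2* at 0.99, *Kdr* at 0.12 and *Pecam1* at -0.34 lay on the higher side under the last. Same-numbered libraries did not deviate together (r of 0.008 to 0.129, 1 of 5 closest to its own number). A check over all genes cannot exclude that equal numbers mark a shared batch. With the replicate block, *Stab2* had 1.92 (limma adjusted p = 0.0609) and no other of the genes changed its call. *Flt4* and *Lyve1* had 1.89 (adjusted p = 0.113) and 1.77 (0.181) without a filter. *Lyve1* held at most 15 reads in any library, which limits what its counts can show.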
